A study of Mus musculus with 40 samples.

Results

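The immunoglobulin genes of the mouse were followed across 40 hippocampal RNA-seq libraries. Members were the rows of the deposited gene count table whose symbol starts with Ighv, Igkv or Iglv (the variable, or V, segments of the heavy chain and of the kappa and lambda light chains), the constant region genes Ighm, Ighd, Igha, Ighe, Ighg1, Ighg2b, Ighg2c, Ighg3, Igkc, Iglc1, Iglc2 and Iglc3, and Jchain. The rule names 361 rows of the 40853 in the table. Of these, 198 reached a count sum of 20 over all libraries and are the members: 95 of 183 Ighv rows, 87 of 162 Igkv rows, all 3 Iglv rows and 13 constant region genes with Jchain.

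Every library came from the hippocampus of 1 mouse that received adeno-associated virus (AAV) on both sides of the brain. All mice carried floxed alleles of both H2A.Z genes, H2afz (now H2az1) and H2afv (now H2az2), which encode a histone variant, although the labels give the Myc control genotype as WT. The WT, KA and KQ mice received Cre under the neuronal Syn promoter together with a CMV-driven Myc-tagged H2A.Z.1, either unchanged (WT), with the N-terminal lysines changed to alanine (KA) or with them changed to glutamine (KQ). The H2A.Z KO mice, which the labels call H2A.Z.1/H2A.Z.2 KD, received Syn-Cre with a vector that carries the 3xMyc tag without H2A.Z.1. The Myc mice received the 3xMyc vector without Cre. The H2A.Z.1 vectors and the 3xMyc vector all encode green fluorescent protein (GFP) as well. The females were 4 WT, 4 KA, 3 KQ, 4 KO and 3 Myc mice, and the males 5 WT, 4 KA, 5 KQ, 4 KO and 4 Myc mice. Ages are not given in the sources used here. The Syn promoter is active in neurons and the CMV promoter in many cell types, and the dissected hippocampus was not sorted by cell type.

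Immunoglobulins are the antibodies of B cells and plasma cells. In each developing B cell, 1 V segment of each chain is picked from a large array and joined to short J (and, in heavy chains, D) segments, so a clone of B cells carries a single productive V choice in all its descendants. The constant region then sets the isotype: IgM (Ighm) and IgD (Ighd) are made before class switching, while the IgG subclasses, IgA and IgE are made after it. Plasma cells, the antibody-secreting end stage, hold very large amounts of immunoglobulin mRNA. The healthy brain parenchyma has few B or plasma cells, while the meninges, the choroid plexus and inflamed tissue can hold more.

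V promoters share an 8-base element, the octamer, which binds the POU factors Oct-1 and Oct-2 with their coactivator OBF-1 (Pou2af1). It was searched as ATGCAAAT and its reverse complement ATTTGCAT in the 250 bases before to 50 bases after each gene start of the GRCm39 assembly. It was found in 76 of 95 Ighv members (80.0%) and always as ATGCAAAT, at a median of 99 bases before the gene start. It was found in 65 of 87 Igkv members (74.7%) and always as ATTTGCAT, at a median of 83.5 bases, and in all 3 Iglv members. Over all 78252 annotated genes 2.30% held it in the same window, and 1.68% of 21757 protein-coding genes did. Stretches around the octamer are given in the gene's own direction, with the octamer in capitals, for V genes that led their locus in several libraries or in the libraries described below.
Ighv1-12: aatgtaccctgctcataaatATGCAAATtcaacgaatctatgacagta
Ighv1-9: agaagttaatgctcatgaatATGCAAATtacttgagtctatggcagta
Ighv9-3: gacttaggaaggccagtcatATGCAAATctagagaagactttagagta
Igkv10-96: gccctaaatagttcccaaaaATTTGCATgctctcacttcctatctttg
Igkv13-84: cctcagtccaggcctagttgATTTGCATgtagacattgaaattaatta
Igkv5-39: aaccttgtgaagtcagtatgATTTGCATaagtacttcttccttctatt
Iglv1 and Iglv2: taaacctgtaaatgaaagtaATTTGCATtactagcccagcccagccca
These lie at chr12:114579983-114580030 (minus strand) for Ighv1-12, chr12:114547700-114547747 (minus) for Ighv1-9, chr12:114104825-114104872 (minus) for Ighv9-3, chr6:68609480-68609527 (minus) for Igkv10-96, chr6:68916477-68916524 (plus) for Igkv13-84 and chr6:69878043-69878090 (minus) for Igkv5-39. The same stretch stands before Iglv1 at chr16:18904288-18904335 and before Iglv2 at chr16:19079672-19079719, both on the minus strand. Ighv1-26 and Igkv6-32 had no exact match in their windows. The octamer runs in opposite directions in the heavy and light chain promoters shown, and the bases around it differ from gene to gene except between the 2 lambda genes.

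At the other end of each V exon stands the recombination signal at which the segment is joined, a heptamer (CACAGTG) and a nonamer (ACAAAAACC in its consensus form) separated by a spacer. The heptamer directly followed the V exon in 73 of 95 Ighv members, 77 of 87 Igkv members and none of the 3 Iglv members, and the exact nonamer followed in 3 Ighv and 29 Igkv members. The heptamer and the 9 bases at the place of the nonamer are in capitals.
Ighv1-12: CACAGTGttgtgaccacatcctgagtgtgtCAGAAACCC
Ighv9-3: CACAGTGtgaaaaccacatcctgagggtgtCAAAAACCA
Igkv13-84: CACAGTGatacaagccatgACATAAACC
The Ighv signals have a spacer of 23 bases and lie at chr12:114579431-114579469 and chr12:114104273-114104311 on the minus strand, and the Igkv13-84 signal has a spacer of 12 bases at chr6:68917052-68917079 on the plus strand. Ighv1-12 itself spans chr12:114579470-114579938, Igkv10-96 chr6:68608947-68609426, Igkv13-84 chr6:68916586-68917051 and Iglv1 chr16:18903767-18904250. V exons are short (295 to 501 bases, median 358) and resemble each other: 90 of the 185 V members have another V row at 95% identity or more, Iglv1 and Iglv2 among them at 96.7%, and 13 are annotated as pseudogenes. How reads that match several rows, or carry somatic mutations, were counted is not given in the sources used here, so the split of counts between such near copies is uncertain.

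Libraries held 24342921 to 45982772 assigned reads, and levels below are CPM (reads of a gene per 1000000 reads of its library) scaled by TMM, a factor that adjusts each library for its composition. Tests are edgeR quasi-likelihood tests over 28449 genes with Benjamini-Hochberg adjusted p, called under 0.05 at any fold. Counts over the whole H2az1 and H2az2 genes did not separate the KO from the Myc mice (H2az1 31.0 ± 3.67 against 32.2 ± 3.58 CPM in females and 31.5 ± 9.37 against 32.9 ± 4.38 CPM in males, SD, adjusted p in females 0.828), and they do not show a deleted exon. Neither H2az1 nor H2az2 passed the test of KO against Myc mice in either sex. KO therefore names the labelled group throughout. In the paper's own mRNA data H2afz was lower in KO mice and H2afv was lower in all Cre groups. The paper proposes that the reduction was small because bulk tissue has low sensitivity for a deletion in neurons. Transthyretin (Ttr), the main product of the choroid plexus, exceeded 1000 CPM in female KO mice 14 and 33, KQ mouse 17 and WT mouse 20, and counts of called genes are also given without these 4.

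V gene transcripts were abundant in H2A.Z KO hippocampus, intermediate by group median in the replacement groups and near zero in most Myc mice. Summed Ighv levels were 27.9, 392 and 839 CPM (lowest, median and highest) in female KO mice, against 0.0395, 2.27 and 4.00 CPM in female Myc mice. In males they were 177, 243 and 953 CPM in KO mice, against 0.0251, 0.0888 and 6.86 CPM in Myc mice. No KO mouse overlapped a Myc mouse of its sex, and female KO mice spread widely. Summed Igkv levels were 56.2, 633 and 1646 CPM in female KO mice against 0.0395, 3.24 and 8.00 CPM in Myc mice, and 299, 460 and 1039 CPM in male KO mice against 0.101, 0.155 and 8.68 CPM in Myc mice. Lambda V genes were lower, at 0.401, 38.9 and 585 CPM in female KO mice against 0.0725, 0.0791 and 0.0852 CPM in Myc mice, and at 13.8, 25.7 and 286 CPM in male KO mice against 0, 0.0146 and 0.0635 CPM in Myc mice. In a bulk library more cells and more RNA per cell cannot be told apart.

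Replacement group medians lay between the Myc and KO medians, with wide spreads, and many single mice lay within the KO range of their sex. Female KA mice had 118 to 244 CPM of Igkv, all above KO mouse 33 (56.2 CPM). Male KA mouse 5 (545 CPM) and KQ mouse 27 (503 CPM) were above the lowest male KO mouse (299 CPM). Median Igkv totals in females were 68.1 CPM in WT, 218 CPM in KA and 162 CPM in KQ mice, and in males 196, 91.8 and 185 CPM in the same order. Single mice of each replacement group were low: female WT mouse 40 had 4.16 CPM, male KA mouse 25 had 1.85 CPM and female KQ mouse 38 had 17.9 CPM of Igkv, and WT mouse 40 and KA mouse 25 fell inside the range of the Myc mice of their sex. Male Myc mouse 23 stood above the other male Myc mice, with 296 Igkv and 234 Ighv counts where the others had at most 6 and 4.

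**Figure D1:**
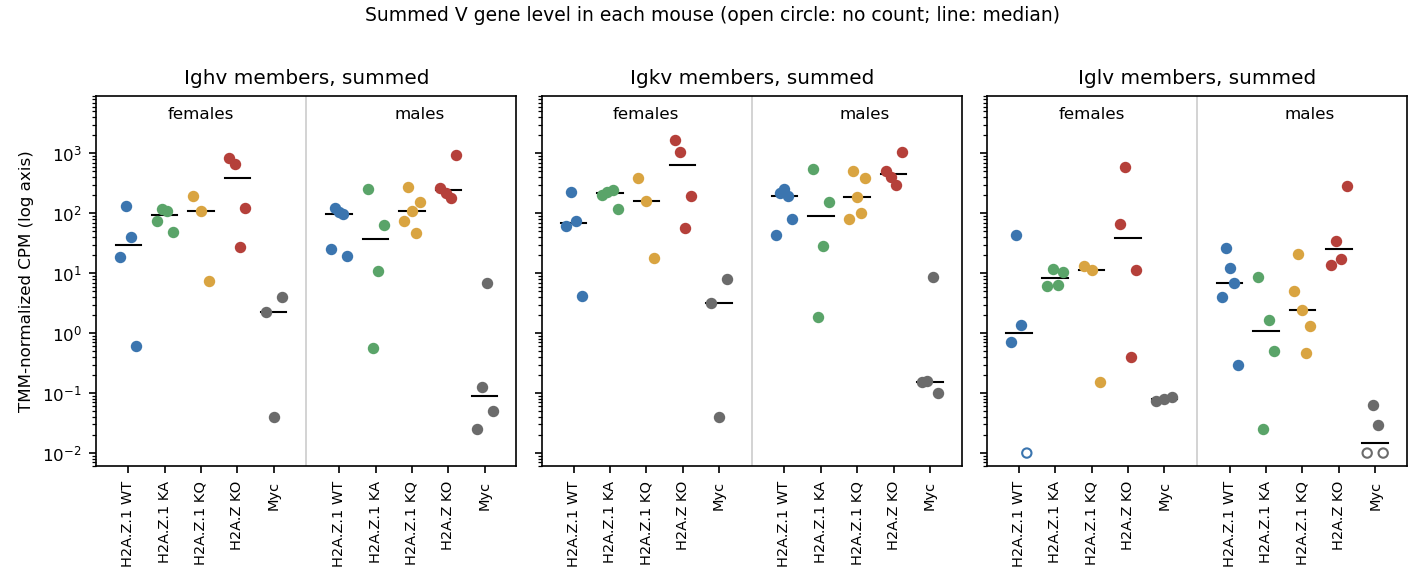
Summed V gene levels in each mouse (TMM-normalized CPM, log axis) for Ighv, Igkv and Iglv members, by sex and virus group; points are mice, lines are group medians and open circles are libraries with no count. Igkv totals run from 56.2 to 1646 CPM in female KO and from 299 to 1039 CPM in male KO mice, above all Myc mice of the same sex.

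Of the 198 members, 74 were higher in female KO than in Myc mice and 84 in male KO mice, beside 18.1% and 17.2% of all genes tested that were higher in the same comparisons (37.4% and 42.4% of the members). The higher members were 33 Ighv, 28 Igkv, 3 Iglv and 10 constant region genes with Jchain in females, and 29, 41, 2 and 12 in males. The median log2 fold change over all members was 7.12 in females and 7.03 in males, where the median over all genes in females was 0.003. In females 141 members and in males 143 had no count in any Myc mouse, and with these set at their lower bound (3 counts over the Myc group) the medians were 5.18 over 179 members and 5.64 over 186. A member that passed the count filter only through KO mice had to be higher there, so these counts describe the members and test nothing about them. Leaving out Myc mouse 11, 31 or 32 took the female count to 31, 37 or 39, leaving out Myc mouse 1 took the male count to 55, and without the mice of high Ttr, all female, the counts were 69 and 92. With only the KO and Myc mice of a sex in the fit, 26 members were higher in females and 58 in males.

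Jchain, which links IgM and IgA monomers into polymers and marks antibody-secreting cells, was at 354, 266, 7.53 and 58.7 CPM in female KO mice 13, 14, 33 and 34, against 1.28, 0.909 and 0.894 CPM in Myc mice 11, 31 and 32. In males it was at 123, 61.7, 83.0 and 163 CPM in KO mice 3, 4, 21 and 42, against 0.704, 0.698, 3.20 and 0.634 CPM in Myc mice 1, 22, 23 and 41. KO mouse 33 was the lowest KO mouse, still above every Myc mouse, and the groups did not overlap in either sex. The log2 fold change was 7.34 ± 1.55 (SE) in females (adjusted p = 0.000423) and 6.38 ± 1.29 in males (adjusted p = 0.000250).

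Igkc, the only kappa constant gene and so the partner of most mouse heavy chains, reached 1984, 1411, 57.3 and 224 CPM in female KO mice, against 5.27, 0.119 and 8.22 CPM in Myc mice. In male KO mice it was at 593, 475, 372 and 901 CPM, against 0.151, 0.159, 10.3 and 0.127 CPM in Myc mice. Mice 13 and 14 stood highest and the groups were again apart. The log2 fold change was 7.66 ± 1.81 in females (adjusted p = 0.00135) and 7.80 ± 1.61 in males (adjusted p = 0.000324).

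Ighm behaved differently from the light chain at the low end. It was at 117, 178, 32.8 and 104 CPM in female KO mice against 24.3, 10.5 and 14.1 CPM in Myc mice, and at 135, 81.3, 113 and 80.2 CPM in male KO mice against 14.2, 12, 11.8 and 10.9 CPM in Myc mice. The KO mice were above the Myc mice in both sexes, by a log2 fold change of 2.71 ± 0.546 in females (adjusted p = 0.000244) and 3.06 ± 0.495 in males (adjusted p = 1.31e-05). Myc mice thus kept an Ighm level of 10.5 CPM or more while Igkc was at 0.119 to 0.159 CPM in Myc mice 31, 1, 22 and 41. Whether those Ighm reads come from complete heavy chain transcripts cannot be read from gene counts.

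IgG genes made up most of the class-switched signal. Ighg2c, the IgG2 subclass that C57BL/6 mice have in place of IgG2a, was at 1507, 1703, 30.5 and 60.8 CPM in female KO mice, against 2.13, 0.198 and 0.341 CPM in Myc mice (log2 fold change 9.63 ± 2.18, adjusted p = 0.000877). In males Ighg2c was at 271, 501, 219 and 57.6 CPM in KO mice, against 0.126, 0.127, 12.3 and 0.203 CPM in Myc mice (6.39 ± 1.62, adjusted p = 0.00271). The groups did not overlap, although KO mice 33 and 34 were far below mice 13 and 14. Ighg2b rose by 7.04 ± 1.96 on the log2 scale in females (adjusted p = 0.00551) and 9.67 ± 2.21 in males (adjusted p = 0.000992), to 30.9 to 455 CPM and 66.4 to 213 CPM in KO mice, against at most 4.43 and 0.469 CPM in Myc mice. Igha, the mucosal isotype, was at 280, 47.4, 6.20 and 97.8 CPM in female KO mice against 0.266, 0 and 0 CPM in Myc mice, and at 105, 14.2, 98.7 and 239 CPM in male KO mice against 0.0754, 0, 0.117 and 0 CPM in Myc mice. Its log2 fold change was 9.78 ± 2.55 in females (adjusted p = 0.00331) and 11.10 ± 2.42 in males (adjusted p = 0.000607), with no overlap in either sex.

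Ighg1, the subclass linked to type 2 help, rested on fewer mice. It was at 2.60, 3.11, 29.8 and 1168 CPM in male KO mice, with no count in any male Myc mouse, at least 14520-fold higher (adjusted p = 0.00139, bound from 3 counts over the Myc group). KO mouse 42 held nearly all of it. In females it was at 23.9, 16.0, 1.57 and 5.34 CPM in KO mice against 0.121, 0 and 0 CPM in Myc mice and did not pass the test (adjusted p = 0.097). Ighg3 was called in both sexes (log2 fold change 7.78, adjusted p = 0.0331 in females and 10.30, adjusted p = 0.00933 in males), and the female call was lost when Myc mouse 11, 31 or 32 or KO mouse 13 was left out. Ighd, made with Ighm by unswitched B cells, was at 1.00, 0.682, 1.80 and 1.34 CPM in male KO mice, against 0.201, 0.159, 0.176 and 0.254 CPM in Myc mice (2.58 ± 0.419, adjusted p = 6.71e-06). In females Ighd was at 0.323, 0.446, 0.401 and 1.63 CPM in KO mice against 0.483, 0.237 and 0.298 CPM in Myc mice, the groups overlapped and the test did not pass (adjusted p = 0.081). Ighe, the IgE gene, had at most 8 counts in any library.

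The lambda constant genes followed with smaller totals. Iglc3 rose by 5.79 ± 1.43 in female KO mice (adjusted p = 0.00196) and 6.20 ± 1.34 in male KO mice (adjusted p = 0.000510). Iglc2 was at 9.69, 305, 0.308 and 2.1 CPM in female KO mice against 0.0725, 0 and 0 CPM in Myc mice, so that KO mouse 14 held nearly all of the level behind its log2 fold change of 11.10 ± 2.14 (adjusted p = 0.000148). In male KO mice Iglc2 stayed between 2.97 and 3.60 CPM, against at most 0.127 CPM in Myc mice (6.40 ± 1.92, adjusted p = 0.0103). Iglc1 was at least 1694-fold higher in male KO than in Myc mice (adjusted p = 0.00187) and called in females (log2 fold change 7.96, adjusted p = 0.0159), where the call was lost without Myc mouse 11, 31 or 32 or KO mouse 13. The male fold of Iglc1 came mostly from KO mouse 42, at 116 CPM where the next KO mouse had 14.1 CPM and the lowest 4.73 CPM. Iglc2 and Iglc3 encode nearly the same protein, so reads may be split between them. In males the calls of Jchain, Igkc, Ighm, Ighd, Igha, Ighg2b, Ighg2c, Ighg3, Iglc2 and Iglc3 held under every alternative fit and in females those of Jchain, Igkc, Ighm, Igha, Ighg2b, Ighg2c and Iglc3 did.

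**Figure D2:**
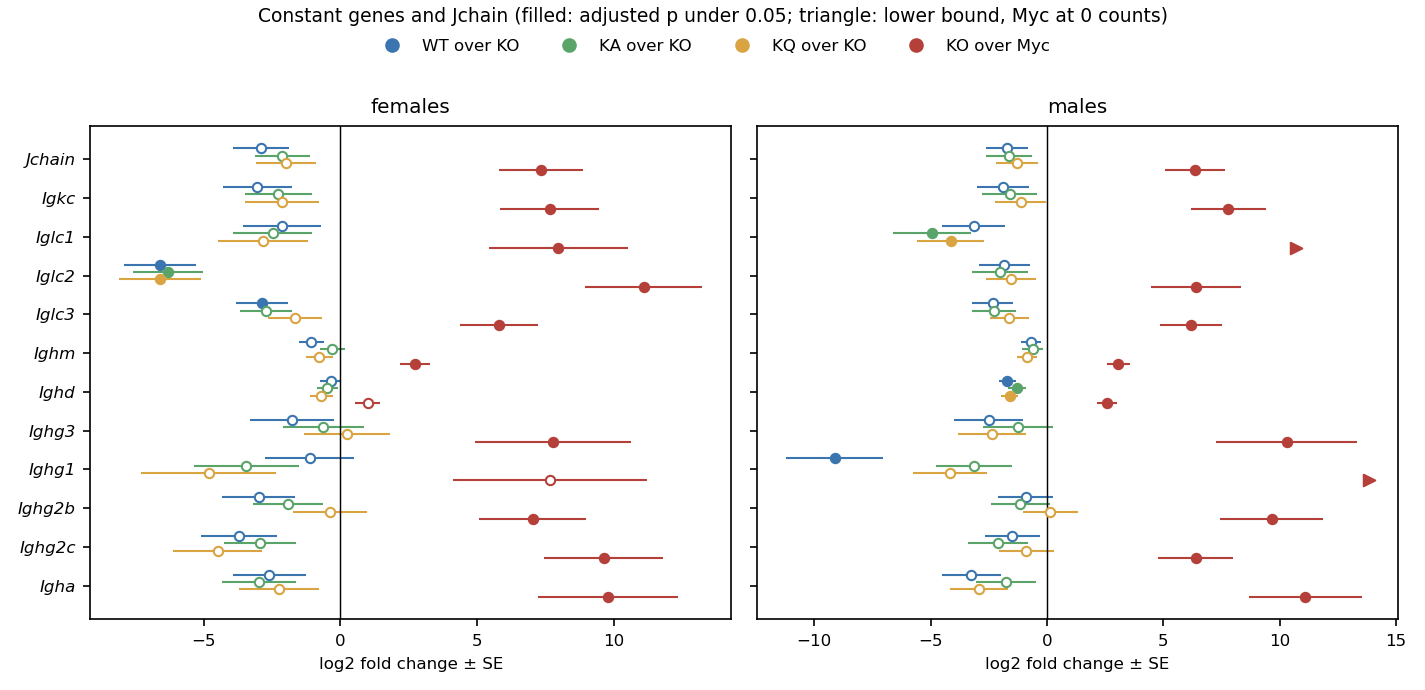
Log2 fold changes (points) with SE (bars) of the constant region genes and Jchain for WT, KA and KQ over KO and for KO over Myc, in females and males; filled points passed an adjusted p of 0.05 and triangles are lower bounds for genes with no count in Myc mice. Every KO over Myc point lies above 0, and most replacement over KO points lie below 0 as open points that did not pass the test.

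Lambda genes had some of the smallest adjusted p among the V genes. Iglv3 was at 2.72, 1.74, 0.0309 and 0.845 CPM in female KO mice against 0, 0 and 0.0426 CPM in Myc mice (6.51 ± 1.48, adjusted p = 0.000931), and was at 1.24, 0.464, 0.888 and 0.907 CPM in male KO mice with no count in Myc mice (at least 42.28-fold, adjusted p = 0.000234). KO mouse 33 overlapped the female Myc mice and the male groups were apart. Iglv1, the most used mouse lambda gene, rose by 9.93 ± 2.99 in female KO mice (adjusted p = 0.0100) and by 13.01 ± 3.03 in male KO mice (adjusted p = 0.00118). Igkv13-84 rose by 12.96 ± 3.55 in females (adjusted p = 0.00489), at 207, 241, 6.73 and 7.90 CPM in KO mice against 0.0242, 0 and 0 CPM in Myc mice. In males Igkv13-84 was at 95.9, 13.2, 116 and 8.04 CPM in KO mice against 0, 0, 5.04 and 0 CPM in Myc mice (5.57 ± 1.80, adjusted p = 0.0175). No KO mouse overlapped a Myc mouse for this gene, and the 2 highest KO mice held most of it in each sex. Igkv10-96 was called in females (9.53 ± 3.05, adjusted p = 0.0154) and not in males (5.15 ± 2.23, adjusted p = 0.0789).

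Ighv1-12 was at 59.2, 120, 6.97 and 1.55 CPM in female KO mice with no count in Myc mice, at least 1407-fold higher (adjusted p = 0.0116). In males Ighv1-12 was at 23.2, 28.0, 2.88 and 6.87 CPM in KO mice against 0, 0.0635, 0 and 0 CPM in Myc mice (9.79 ± 3.08, adjusted p = 0.0150). All KO mice had it and all but 1 of the Myc mice lacked it. Ighv1-9 was called in both sexes (8.42 ± 2.74, adjusted p = 0.0178 in females and at least 524.9-fold, adjusted p = 0.00735 in males), as was Ighv1-26 (7.50 ± 2.57, adjusted p = 0.0229 and 8.25 ± 2.61, adjusted p = 0.0151). Ighv9-3 was at 7.25, 0.136, 3.44 and 478 CPM in male KO mice with no count in Myc mice (at least 5895-fold, adjusted p = 0.000329), and Iglv2 was at 0.296, 471, 0 and 0.409 CPM in female KO mice against 0, 0.0791 and 0 CPM in Myc mice (12.16 ± 2.85, adjusted p = 0.00124). Those 2 folds rested on KO mouse 42 and KO mouse 14, and without mouse 14 Iglv2 was not called (3.21, adjusted p = 0.34).

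This concentration in single mice was general among the called V genes. Of 64 V members higher in female KO mice, 57 had over 50% of the KO group's summed CPM in 1 mouse and 18 had over 90%, with a median of 77.4% in the top mouse. Of 72 in males, 57 and 18 did, with a median of 64.8%. KO mouse 13 was the highest mouse for 30 of the 64 and KO mouse 3 for 26 of the 72. Every KO mouse thus lay above every Myc mouse of its sex in Ighv and Igkv totals, while the folds of single V genes came mostly from 1 mouse.

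How few V genes dominated a library was measured as the share of a locus taken by its leading gene, in libraries with at least 100 counts in that locus. Over 32 such libraries the leading Ighv gene took a median of 25.7% of Ighv counts (12.5% to 75.6%) and the top 3 genes 54.8% (30.7% to 88.6%). Over 35 libraries the leading Igkv gene took 28.0% (11.3% to 79.6%) and the top 3 genes 53.7% (32.7% to 98.4%). In both loci a median of 3 genes held 50% of the counts (1 to 6 genes for Ighv and 1 to 7 for Igkv). To reach 90% took a median of 11.5 Ighv genes (4 to 23) and 13 Igkv genes (2 to 26). A library had counts for a median of 41 Ighv genes (17 to 84) and 48 Igkv genes (6 to 78), so most V genes seen in a library were present in small amounts.

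The lambda locus has only 3 V genes and was the most uneven. Over 21 libraries the leading gene took a median of 94.2% of Iglv counts (66.1% to 99.4%). Iglv1 led in 19 of them, and Iglv2 led in female KO mouse 14 with 80.6% (95% exact binomial interval 80.1% to 81.0%) and in female KA mouse 35 with 66.1% (59.0% to 72.8%). Female KO mouse 14 held 97.6% of all Iglv2 counts of the study. These intervals, like those below, cover counting error only.

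The leading shares of WT, KA, KQ and KO libraries overlapped with both sexes pooled. Medians for Ighv were 23.8% in 8 WT, 23.0% in 7 KA, 36.6% in 8 KQ and 20.5% in 8 KO libraries. For Igkv they were 26.4% in 9 WT, 26.0% in 7 KA, 36.3% in 8 KQ, 21.4% in 8 KO and 58.1% in 3 Myc libraries. By sex the order changed: the Ighv median of KO libraries was 33.8% in males and 19.4% in females, the Igkv median of KQ libraries was 38.9% in males and 25.9% in females, and the ranges of WT, KA, KQ and KO libraries overlapped within each sex. No test was made of these medians. WT (median 38.5 Ighv and 42 Igkv genes), KA (42 and 50) and KQ libraries (35 and 44) had counts for fewer V genes than KO libraries (69 and 70), and they had fewer V counts. At an equal draw of 100 counts the expected number of V genes was 16.2 Ighv and 18.1 Igkv in WT, 18.2 and 19.7 in KA and 13.8 and 18.5 in KQ libraries, against 23.2 and 23.7 in KO libraries. These are medians and the libraries overlapped, from 9.08 to 23.4 Ighv genes in WT libraries against 10.8 to 28.1 in KO libraries, where KO mice 42 and 33 were lowest.

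**Figure D3:**
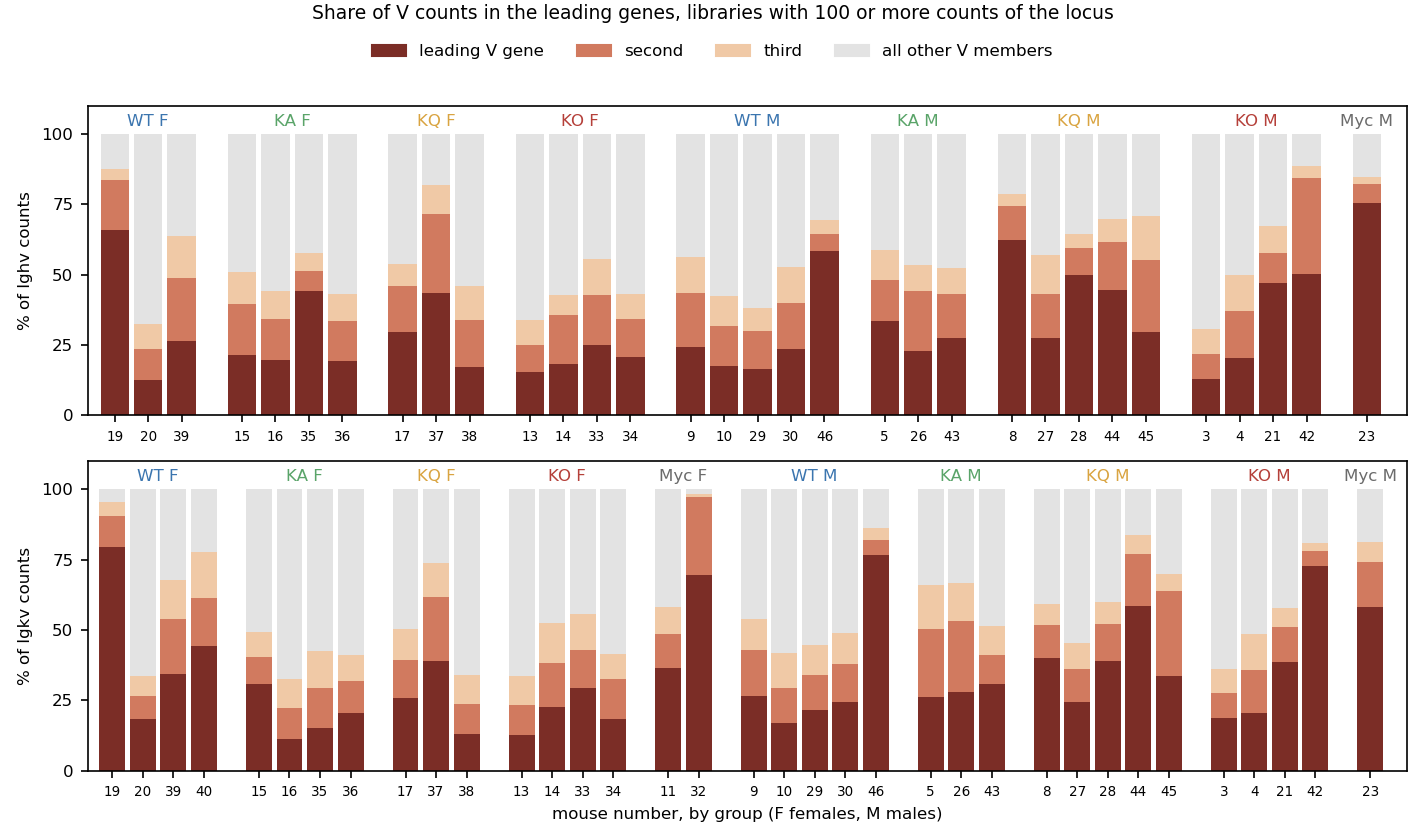
Stacked bars of the share of V counts (percent of Ighv counts above and Igkv counts below) taken by the leading V gene, the second, the third and by all other V members in each library with at least 100 counts of the locus, by mouse number and group. Leading Igkv shares run from 11.3% (KA mouse 16) to 79.6% (WT mouse 19) and leading Ighv shares from 12.5% (WT mouse 20) to 75.6% (Myc mouse 23).

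Which gene led changed from mouse to mouse. Of the 95 Ighv members, 19 led at least 1 of the 32 libraries and 13 of those led only once, and of the 87 Igkv members 19 led and 12 only once. Ighv1-12 led 7 libraries of 4 groups, among them all 3 female KQ libraries (29.6%, 43.5% and 17.0% in mice 17, 37 and 38), and Ighv1-9 led 4 libraries of 2 groups. Igkv10-96 and Igkv13-84 led 6 each, and Igkv6-32 led 3 male replacement libraries. Igkv10-96 had a count in 35 of all 40 libraries, and at least 10% in 13 of the libraries with at least 100 Igkv counts. At the other end 26 Ighv and 17 Igkv members never reached 1% of their locus in any library, and 41 Ighv and 31 Igkv members had over 50% of all their counts in 1 library.

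Libraries of the same sex and virus group shared a leading Ighv gene in 7 of 47 pairs (14.9%), against 24 of 449 pairs of different groups (5.35%). For Igkv it was 4 of 51 pairs (7.84%), against 33 of 544 (6.07%). The pairs share libraries and these shares are a description. The 3 female KQ libraries led by Ighv1-12 give 3 of the 7 Ighv pairs.

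**Figure D4:**
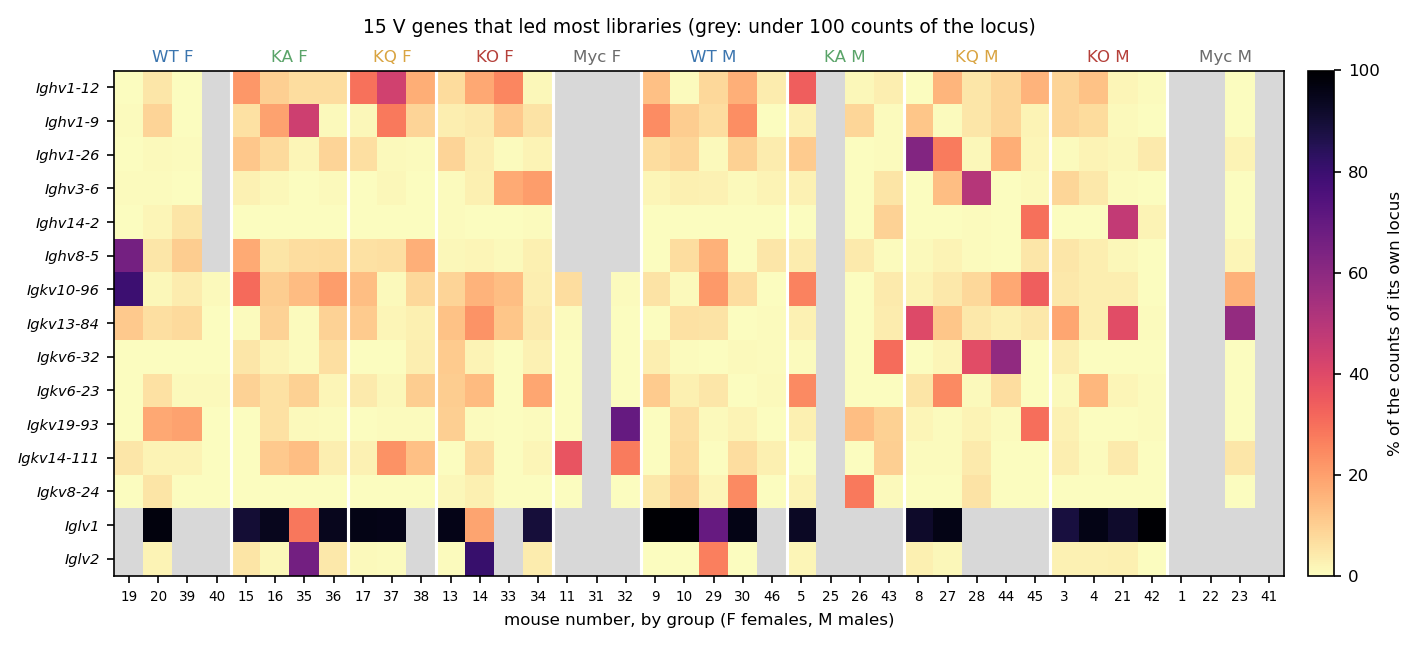
Percent of the counts of its own locus (colour, darker is higher) taken by each of the 15 V genes that led most libraries, with genes down the side and mice along the bottom by group; grey cells are libraries under 100 counts of the locus. Most genes are dark in 1 or a few libraries, while Ighv1-12, Igkv10-96 and Igkv13-84 reach 10% in 12, 13 and 10 libraries.

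In the most uneven libraries 1 or 2 genes held most of a locus, some of them genes that led elsewhere too. In male KO mouse 42, Ighv9-3 took 50.1% of Ighv counts (49.5% to 50.8%), Ighv1-80 took 34.4% and Igkv5-39 took 72.8% of Igkv counts (72.2% to 73.4%). Igkv5-39 was at 756 CPM there, against 0.784, 0.382 and 0.631 CPM in the other male KO mice, and this library held 80.4% of all its counts and 90.4% of all Ighv9-3 counts. This library also held 69.1% of its heavy chain constant signal, per kilobase, in Ighg1, while no other KO library was led by that gene. Igkv5-39 was also at 84.4 CPM in male KA mouse 5 and 21.2 CPM in female KA mouse 35.

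Male WT mouse 46 had 58.5% of Ighv counts in Ighv5-12 (54.4% to 62.5%) and 76.6% of Igkv counts in Igkv4-61 (74.9% to 78.3%), from 595 and 2488 counts. Female WT mouse 19 had 65.7% in Ighv8-5 (62.1% to 69.2%) and 79.6% in Igkv10-96 (78.0% to 81.2%). Male KQ mouse 8 had 62.3% in Ighv1-26 (60.1% to 64.5%), and male KQ mouse 44 had 44.6% in Ighv1-55 and 58.6% in Igkv6-32. Male KO mouse 21 had 47.1% in Ighv14-2 and 38.7% in Igkv13-84. The intervals given are narrow beside the distance to the median library, but they cover counting error only and do not show how firmly a library stands apart.

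Myc libraries with enough counts were also led by single genes. Male Myc mouse 23 had 75.6% of 234 Ighv counts in Ighv1-64 (69.6% to 81.0%) and 58.1% of 296 Igkv counts in Igkv13-84 (52.3% to 63.8%). Female Myc mouse 32 had 69.7% of 188 Igkv counts in Igkv19-93 (62.6% to 76.2%) and Myc mouse 11 had 36.6% of 134 in Igkv14-111 (28.4% to 45.3%). The other Myc libraries had too few counts for a share. Igkv5-39, Ighv5-12, Ighv1-64 and Ighv1-55 were named after their values were seen.

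By the leading share the most even libraries were female WT mouse 20 for Ighv, where Ighv4-1 led with 12.5% (11.6% to 13.4%), and female KA mouse 16 for Igkv, where Igkv4-59 led with 11.3% (10.6% to 12.1%). By the number of genes that held 90% of the counts, male KO mouse 3 was above both, with 21 Ighv genes against 18 in WT mouse 20 and 26 Igkv genes against 15 in KA mouse 16. Among the mice with the highest totals, female KO mouse 13 was led by Ighv1-39 with 15.4% and by Igkv13-84 with 12.6%. Female KO mouse 14 was led by Ighv1-12 with 18.1% and by Igkv13-84 with 22.5%. To reach 90% of the counts took 17 Ighv and 17 Igkv genes in KO mouse 13 and 23 and 17 in KO mouse 14, but 4 and 9 in KO mouse 42. Ighv4-1 and Ighv1-39 were named after their values were seen.

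Isotype shares were computed per kilobase of gene, as percent of the heavy chain constant signal. Ighg2c led the switched isotypes in most libraries. Ighg2b led in female KQ mice 17 (59.8% of the switched signal) and 37 (69.4%), male WT mouse 9 (50.4%), male KQ mouse 8 (52.9%) and female Myc mouse 32 (86.6%). Ighg1 led in male KO mouse 42 (74.0%) and male KQ mouse 44 (49.5%). Ighm was 4.21% to 31.8% of the heavy chain signal in female KO mice and 6.52% to 19.8% in male KO mice, against 83.6% in Myc mouse 11, 78.4% in Myc mouse 32 and 39.6% in Myc mouse 23, and it was also high in male KA mouse 26 (78.6%) and female KQ mouse 38 (65.6%). Igha reached at most 21.2%, in female KO mouse 34. The ratio of Ighm to Igkc counts was 0.059 to 0.572 in KO libraries, against 1.15 to 94.3 in Myc libraries, with no overlap. No count minimum was set for it, and ratios of 75.6 or more, in Myc mice 31, 1, 22 and 41, rested on 3 to 9 light chain constant counts. Female WT mouse 40 (6.21), female KQ mouse 38 (1.82) and male KA mice 25 (7.58) and 26 (2.03) lay in the Myc range as well.

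The lambda share of light chain constant counts was highest in female KO mouse 14, at 20.5% (95% exact interval 20.2% to 20.7%), and in male KO mouse 42, at 11.9% (11.4% to 12.3%). Female WT mouse 20 had 7.44% (6.97% to 7.92%). KO mouse 14 was led by Iglv2 with Iglc2 (471 and 305 CPM), and KO mouse 42 by Iglv1 with Iglc1 (285 and 116 CPM). In the mouse locus Iglv2 lies upstream of Iglc2 and Iglv1 upstream of Iglc1.

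**Figure D5:**
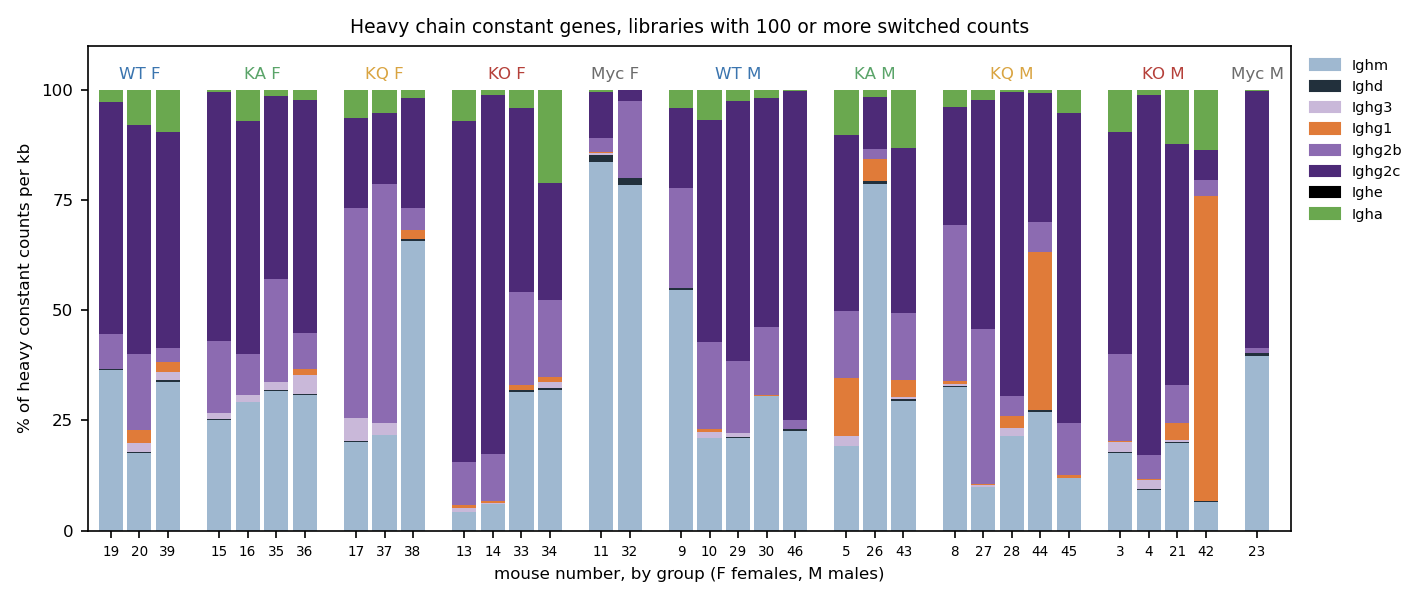
Stacked bars of heavy chain constant genes, as percent of their counts per kilobase, in each library with at least 100 counts of switched isotypes, by mouse number and group. Ighg2c and Ighg2b fill most of the bar in KO mice 13, 14, 3, 4 and 21, Ighg1 takes 69.1% in KO mouse 42, and Ighm takes 83.6% and 78.4% in Myc mice 11 and 32.

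Replacement of H2A.Z was compared with KO, which asks how far an added histone changes the KO pattern. The 3 replacement groups share the same KO mice in each sex, so their values stand side by side and are not independent. In females 40 members were lower in WT than in KO mice (9.17% of all genes were lower), 19 were lower in KA (9.62%) and 22 in KQ mice (7.63%). In males 30 were lower in WT (12% of all genes), 23 in KA (9.94%) and 26 in KQ mice (12.7%). Member medians were -3.39, -2.70 and -2.95 on the log2 scale in females and -2.40, -2.60 and -1.60 in males for WT, KA and KQ. The members' own shares were 20.2%, 9.6% and 11.1% in females and 15.2%, 11.6% and 13.1% in males, and that of female WT mice stood furthest above its background. A member that passed the count filter mainly through KO mice was bound to be lower against KO. These shares therefore describe the members and test nothing about them. The counts rested on single mice: without KO mouse 13 or 14 the female WT count was 17 each, without WT mouse 19, 39 or 40 it was 15, 13 or 14, and without any of the 3 KQ mice the female KQ count (23 in either direction) was 7, 4 or 2. Without KO mouse 13 or 14 the female KQ count was 8 or 12. The female KA count (20 in either direction) was 10 to 12 without KO mouse 13, KO mouse 14 or any KA mouse and 39 without KO mouse 33, and the male KA count was 15 without KA mouse 43. With only the compared groups in the fit, 11, 5 and 0 members were lower in WT, KA and KQ females and 24, 12 and 14 in males.

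A single member was higher than in KO mice in each of 3 comparisons: Ighv5-9 in female KA (5.27, 5.63% of all genes higher), Igkv4-80 in female KQ (4.99, 5.36%) and Ighv1-56 in male KQ mice (6.11, 8.72%), where KQ mouse 45 held 99.1% of the level. These 3 were named after their values were seen.

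Constant region genes rarely passed against KO. Igkc fell short of the threshold in all 6 comparisons, with log2 fold changes of -3.04 ± 1.25, -2.27 ± 1.21 and -2.13 ± 1.34 for WT, KA and KQ in females (adjusted p 0.105, 0.222 and 0.330) and -1.87 ± 1.11, -1.60 ± 1.19 and -1.12 ± 1.10 in males (0.262, 0.412 and 0.536). Igkc was at 64.8, 284, 93.6 and 5.12 CPM in female WT mice 19, 20, 39 and 40, and at 169, 230, 237 and 126 CPM in KA mice. Female KO mice had 57.3 to 1984 CPM, so the groups overlapped through KO mice 33 and 34. Jchain came nearest in female WT mice (-2.89 ± 1.03, adjusted p = 0.0556). Ighm did not pass in any of them (-1.07 to -0.30 in females and -0.84 to -0.60 in males).

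Iglc2 was lower in all 3 female replacement groups: 0.390, 1.75, 0.981 and 0 CPM in WT mice, 1.21, 1.34, 1.15 and 0.416 CPM in KA mice and 1.54, 0.784 and 0.104 CPM in KQ mice, against 9.69, 305, 0.308 and 2.1 CPM in KO mice. The log2 fold changes were -6.61 ± 1.31, -6.30 ± 1.29 and -6.60 ± 1.49 (adjusted p 0.000903, 0.00155 and 0.00396). KO mouse 33 lay within the replacement range. Without KO mouse 14 they were -2.34, -1.99 and -2.31 and none passed (adjusted p 0.123, 0.196 and 0.184). Iglv2 followed the same mouse (-8.06, -6.56 and -10.90, adjusted p 0.00236, 0.00662 and 0.00463), and without it its difference in WT mice was 0.82 and in KA mice 2.39.

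In males Ighd was lower in all 3 replacement groups, at 0.334 to 0.425 CPM in WT, 0.431 to 0.577 CPM in KA and 0.279 to 0.540 CPM in KQ mice, against 0.682, 1.00, 1.34 and 1.80 CPM in KO mice. No replacement mouse overlapped a KO mouse. The log2 fold changes were -1.71 (adjusted p = 0.000635), -1.29 (adjusted p = 0.0156) and -1.59 (adjusted p = 0.00124), and the KA difference was not called without KO mouse 21 (-1.02, adjusted p = 0.086). Ighg1 was lower in WT than in KO males by a log2 fold change of -9.12 ± 2.10 (adjusted p = 0.00221), at 0 to 2.45 CPM in WT mice, and this was not called without KO mouse 42 (-4.45, adjusted p = 0.078). Ighv9-3 was lower in WT, KA and KQ than in KO males (-13.71, -7.97 and -6.35, adjusted p 0.000212, 0.00298 and 0.00264), and KA and KQ did not pass without mouse 42 (adjusted p 0.198 and 0.558). Igkv2-109 was lower in all 3 as well (-5.98, -8.98 and -9.12, adjusted p 0.00232, 0.00215 and 0.000595), with 19.8 CPM in KO mouse 3 and at most 0.389 CPM in any other male.

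Against the Myc controls, which the replacement groups of a sex also share, edgeR called few members. In females 2 members were higher in WT (5.87% of all genes), 5 in KA (4.42%) and 7 in KQ mice (3.59%). In males 11 were higher in WT (3.66%), 12 in KA (5.15%) and 13 in KQ mice (3.48%). The members' own shares were 1.0%, 2.53% and 3.54% in females and 5.56%, 6.06% and 6.57% in males, below the background in WT and KA females and above it in all male groups. Each share rests on 2 to 13 members, so its side of the background is no result about the members. DESeq2 called many more, 64, 70 and 60 members higher in females (of 131, 135 and 128 with an adjusted p) and 79, 76 and 89 in males, so the low counts hold for edgeR only. The share of all genes that DESeq2 called is not given here, so the members' place beside a DESeq2 background is unknown. Ighm and Jchain were higher in all 6 comparisons. Ighm differed by 1.64, 2.41 and 1.94 in WT, KA and KQ females (adjusted p 0.0448, 0.00582 and 0.0343) and by 2.38, 2.46 and 2.22 in males (adjusted p 0.00182, 0.00113 and 0.00356), and Jchain by 4.45 to 5.35 in females (adjusted p 0.0477, 0.0250 and 0.0321) and 4.66 to 5.08 in males (adjusted p 0.0178, 0.0129 and 0.0110). The WT female count was 0 without WT mouse 19, WT mouse 20, Myc mouse 31 or Myc mouse 32, 1 without Myc mouse 11 and 8 without WT mouse 40. The KA female count was 1 or 2 without Myc mouse 11, 31 or 32 or KA mouse 15 or 16 and 8 without KA mouse 36, and the KQ female count was 0 or 1 without KQ mouse 17 or any Myc mouse. Male counts without a Myc mouse were 1 to 5 for WT, 4 to 7 for KA and 4 to 6 for KQ mice. Leaving out WT mouse 29, KA mouse 5, KA mouse 25 or KQ mouse 27 gave 6, 2, 21 and 8.

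Igkc was also higher than in Myc mice in KA and KQ females (5.39 and 5.53, adjusted p 0.0408 and 0.0476) and in WT, KA and KQ males (5.93, 6.20 and 6.68, adjusted p 0.0136, 0.00826 and 0.00733). It was at 561, 2.28, 32.4 and 177 CPM in male KA mice 5, 25, 26 and 43, against 0.151, 0.159, 10.3 and 0.127 CPM in Myc mice, so KA mouse 25 lay below Myc mouse 23. Ighg2b was higher in all 3 male groups (8.77, 8.53 and 9.82, adjusted p 0.0129, 0.0125 and 0.00603). Named V genes among the higher ones were Ighv1-9 in female KA (8.67, adjusted p = 0.0494) and male WT mice (at least 475.6-fold, adjusted p = 0.0356), Ighv1-12 in male KA mice (10.29, adjusted p = 0.0325), and Ighv1-26 (9.45, adjusted p = 0.0255) and Ighv3-6 (at least 893.5-fold, adjusted p = 0.0196) in male KQ mice.

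KA and KQ mice, which differ in the residue that replaces the lysines, were compared directly. By edgeR 0 members passed in either sex, beside 0% of all genes, while 22 members in females and 30 in males had an unadjusted p under 0.05 and DESeq2 called 7 and 5. Igkc was at 169, 230, 237 and 126 CPM in female KA mice and 408, 203 and 16.5 CPM in KQ mice, with full overlap. The difference between the sexes in the KO effect passed for 0 members by edgeR (1 at an unadjusted p under 0.05, beside 0% of all genes), and DESeq2 called 10. These DESeq2 counts have no DESeq2 share over all genes beside them and are no result about the members. A missed threshold does not show that the sexes or the mutants act alike.

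Genes of the cells that make immunoglobulin moved in the same comparisons. Of 14 B cell genes 11 were higher in KO than in Myc mice in each sex, and the list's median log2 fold change was 4.38 in females and 4.09 in males. Over all genes 18.1% were higher in females and 17.2% in males, shares that also belong beside the list counts of KO against Myc mice below. Cd22, an inhibitory co-receptor of B cells, was at 15.8 ± 7.60 CPM in female KO mice against 0.796 ± 0.880 CPM in Myc mice (4.18, adjusted p = 1.21e-05), and at 14.7 ± 2.45 against 0.580 ± 0.174 CPM in males (4.67, adjusted p = 3.78e-07). Cd79a, the signalling partner of surface immunoglobulin, differed by 4.59 in females and 3.65 in males. Cr2, Bank1 and Fcer2a did not pass. Summed over the 14 genes, KO mice had 15.5 to 49.6 CPM in females and 29.1 to 49.1 CPM in males, against 4.74 to 7.27 and 5.81 to 6.82 CPM in Myc mice.

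Of 12 plasma cell genes 9 were higher in each sex, with medians of 1.85 and 1.99. The 12 genes summed to 122 to 193 CPM in female KO mice, close above the 99.7 to 120 CPM of Myc mice. In males the sums were 146 to 154 CPM in KO mice against 98.0 to 109 CPM in Myc mice. Mzb1, a chaperone of immunoglobulin assembly, differed by 6.64 in females (adjusted p = 0.000146) and 4.78 in males, and Pou2af1, the coactivator at the octamer printed above, by 4.63 and 4.81. Tnfrsf13b, a receptor for B cell survival factors, differed by 2.09 (adjusted p = 8.97e-08) and 2.40 (adjusted p = 2.75e-10), the plasma cell regulators Irf4 and Prdm1 by 3.68 and 1.82 in females and 3.28 and 2.36 in males, and the broadly expressed secretory regulator Xbp1 by 0.42 and 0.41. Of 6 tested genes of V(D)J recombination, class switching and the surrogate light chain, 1 was higher in each sex.

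Receptors that bind immunoglobulin and factors that recruit B cells were higher as well. Of 10 receptor genes 8 were higher in females and 9 in males (medians 2.82 and 3.30), among them the IgG receptors Fcgr1 (2.77 and 3.01), Fcgr2b (3.71 and 4.07) and Fcgr4 (4.83 and 6.55), the cytosolic antibody receptor Trim21 (2.94 and 3.44) and the IgM receptor Fcmr (4.14 and 3.68). Of 10 recruitment and survival genes 8 were higher in each sex. Cxcl13, the chemokine that draws B cells, was at 360 ± 221 CPM in female KO mice against 3.14 ± 3.49 CPM in Myc mice (6.72, adjusted p = 0.000102) and at 356 ± 280 against 1.65 ± 0.822 CPM in males (7.75, adjusted p = 4.52e-06), while Cxcl12 did not pass (0.35 and 0.01).

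Against KO, B cell genes were lower in replacement mice: 12, 10 and 9 of 14 in WT, KA and KQ females and 12, 12 and 11 in males, with medians of -2.78, -2.22 and -2.27 and -2.56, -2.56 and -1.92. Over all genes 9.17%, 9.62% and 7.63% were lower in females and 12%, 9.94% and 12.7% in males. Plasma cell genes were lower for 8, 7 and 3 of 12 in females and 6, 4 and 5 in males. Cxcl13 was lower in WT and KQ females (-3.60, adjusted p = 0.00717 and -3.64, adjusted p = 0.0192) and did not pass in KA females (-2.45, adjusted p = 0.055). Against Myc, 1 B cell gene was higher in each of the 6 comparisons. T cell genes were also lower against KO, 9, 9 and 8 of 9 in WT, KA and KQ females and 9 of 9 in each male group, as were microglial genes, 7, 6 and 7 of 7 in females and 7 of 7 in each male group. Their part in the immunoglobulin differences was not tested.

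Markers of other cells moved beside the immunoglobulins in KO against Myc mice. T cell genes were higher for 9 of 9 in each sex (medians 4.52 and 6.36) and microglial genes for 7 of 7 (1.80 and 1.83), and hippocampal neuron genes were lower for 4 of 7 (-0.586 and -0.556). The share of all genes that were lower in KO than in Myc mice is not given here, so the neuron count stands without a background. In females 8 of 9 choroid plexus genes, 5 of 6 meningeal fibroblast genes and 4 of 5 blood genes were higher. In males 3 of 6 meningeal genes were higher. The summed choroid plexus level was 66.9 to 4058 CPM in female KO mice against 29.4 to 49.9 CPM in Myc mice, and 48.3 to 674 CPM in male KO mice against 34.7 to 600 CPM in Myc mice, so the male groups overlapped. Blood genes summed to 84.9 to 130 CPM against 45.9 to 62.3 CPM in females and to 54.7 to 105 CPM against 54.5 to 89.0 CPM in males. Their part in the immunoglobulin differences was not tested.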

How the data were processed

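Hippocampal RNA of 40 mice in 10 groups of sex and virus was measured by RNA-seq. Per the study's methods and the submitters' processing notes, the authors checked reads with FastQC 0.11.9, aligned them to GRCm39 with Rsubread and counted read pairs per gene with featureCounts. The deposited values are raw counts per gene, and the authors' own test was DESeq2 1.38.3. The annotation release, the strand setting and the treatment of reads that match several genes are not given in the sources used here.

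Counts were tested with edgeR 4.0.16 (R 4.3.3) by quasi-likelihood F-tests on the means of the 10 groups, with TMM scaling, genes of a count sum of 20 or more (28449 of 40853 genes, 198 members) and Benjamini-Hochberg adjustment over all genes tested in each comparison. A call is an adjusted p under 0.05. Libraries held 24342921 to 45982772 counts, and groups of 3 to 5 mice set the precision. SE values of log2 fold changes come from the fitted model, ± values of levels are SD over mice, and a fold over a group with no count is a lower bound from 3 counts over that group. Alternatives were DESeq2 1.42.0, fits of the compared groups only, other filters, a fit without robust estimation, library number range as a term, no mice of high Ttr (chosen after seeing the data) and leaving out each mouse.

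Shares of a locus used libraries with at least 100 counts of it, with exact 95% binomial intervals that cover counting error only, since reads are not independent molecules. Isotype shares divide counts by exon length. Gene positions and sequences are from GRCm39 with the GENCODE vM39 annotation, which matched all 198 members. Replicates are separate mice by their labels.

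The members and gene lists were chosen with earlier results of these data known. Named were all constant genes and Jchain, up to 15 V genes that led most libraries, up to 5 V genes of smallest adjusted p in each comparison and up to 4 genes of each list, and other V genes are said to be named after their values were seen, while further genes of the lists were named for their roles with their values known. The analysis steps were tested on simulated data.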

Additional observations from a re-analysis of the deposited data

Results flagged for a closer look

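In groups of 4 or 5 mice, the highest or lowest mouse was compared with its nearest neighbour by Dixon's gap, as a share of the group's range. Of 135 groups and measures tested, 32 had a mouse beyond the 95% limit. A chance rate of about 5% belongs to that limit only where values are normally distributed. Most measures were untransformed CPM and many were skewed, such as Ighg1 at 2.60 to 1168 CPM in male KO mice. The 32 therefore cannot be read as an excess over chance, and they serve only to list mice that stood apart. Measures of 1 mouse are related, so these 32 are not independent.

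Among KO mice, male mouse 42 was far above the others in Ighg1 (1168 CPM, next mouse 29.8), Iglc1 (115.6 CPM), the Ighv total (952.7 CPM, next 264.1) and the Iglv total (286.3 CPM). Female mouse 14 was in Iglc2 (305.3 CPM, next 9.69) and the Iglv total (584.8 CPM), female mouse 34 in Ighd (1.635 CPM) and male mouse 3 in Ighg2b (213.4 CPM).

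Replacement groups held such mice too. Female WT mouse 20 was far above the others in Ighg2b (95.88 CPM), Iglc1 (19.70 CPM), the Iglv total (43.48 CPM) and the lambda share (7.438%), male WT mouse 10 in Ighg1 (2.447 CPM) and male WT mouse 46 in the leading Ighv (58.49%) and Igkv (76.61%) shares. Among KA mice it was female mouse 36 in Ighg1 (3.485 CPM), mouse 16 in Igha (39.24 CPM) and mouse 35 in the leading Ighv share (44.19%), and male mouse 5 in Ighg1 (121.2 CPM), Ighg3 (20.36 CPM) and Iglc1 (3.599 CPM). Among male KQ mice it was mouse 44 in Ighg1 (65.68 CPM) and mouse 27 in Ighg2b (376.9 CPM), Iglc1 (6.288 CPM) and the Iglv total (20.77 CPM).

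Male Myc mouse 23 was beyond the limit among the male Myc mice in 7 measures: Ighg2b (0.4692 CPM), Ighg2c (12.29 CPM), Ighg3 (0.0293 CPM), Igkc (10.26 CPM), Jchain (3.196 CPM) and the Ighv (6.862 CPM) and Igkv (8.68 CPM) totals. For Ighg3 this was 1 count where the other male Myc mice had 0, so that measure carries no weight. The values of mouse 23 were below those of every male KO mouse in each of these measures. Male KA mouse 25 was below it in Igkc (2.28 CPM) and Jchain (1.37 CPM).

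Joining segments (symbols starting with Ighj, Igkj or Iglj, 14 genes) lay outside the members. Their summed level had a median of 6.75 CPM in female KO mice, against at most 0.362 CPM in Myc mice, and of 5.63 CPM in male KO mice, against at most 0.528 CPM in Myc mice.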

How the results depend on the processing

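No paired analysis was possible because every mouse has a number of its own and no number is shared between groups. V genes are short and alike, so which gene a read is given to limits single V values more than totals, and libraries with few counts limit shares: Myc libraries rarely reached 100 counts of a locus. Groups of 3 to 5 mice with wide spreads limit every count of called genes. The causes of the moves below were not tested.

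Counts of members called moved by over 1.5 times as follows. In females KO over Myc (74) gave 26 with only the compared groups in the fit, where fewer mice estimate the spread, WT over KO (40) 11, KA over KO (20) 5 and KQ over KO (23) 0, while 62 members had an unadjusted p under 0.05 in the edgeR fit of all groups and DESeq2 called 23. KA over KO also gave 34 without robust estimation and 11 by DESeq2, and KQ over KO 35 without robust estimation. WT over Myc (2) gave 7 with filterByExpr, 0 with no filter, 8 without robust estimation, 1 with number range, 65 by DESeq2, 1 with the compared groups only and 0 without mice of high Ttr. KA over Myc (5) gave 11, 3, 10, 8, 71, 19 and 8 in the same order, and KQ over Myc (7) gave 3 with no filter, 11 without robust estimation, 62 by DESeq2, 1 with the compared groups only and 0 without mice of high Ttr. KA over KQ (0) gave 7 by DESeq2.

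In males KA over KO (23) gave 12 with the compared groups only, and KQ over KO (27) gave 14 there, 11 with number range and 9 by DESeq2. WT over Myc (11) gave 22 without robust estimation, 81 by DESeq2, 19 with the compared groups only and 17 without mice of high Ttr, KA over Myc (12) gave 22 without robust estimation and 77 by DESeq2, and KQ over Myc (13) gave 23, 22 with number range and 90 by DESeq2. KA over KQ gave 5 and the sex difference 10 by DESeq2.

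Leaving out each mouse gave, for KO over Myc, 31 to 94 in females and 55 to 78 in males. For WT, KA and KQ over KO it gave 13 to 53, 10 to 39 and 2 to 34 in females and 20 to 29, 15 to 32 and 19 to 25 in males. For WT, KA and KQ over Myc it gave 0 to 8, 1 to 8 and 0 to 9 in females and 1 to 14, 2 to 21 and 4 to 14 in males, and 0 for KA over KQ and the sex difference. Median leading shares stayed at 25.0% to 26.3% (Ighv), 27.2% to 28.6% (Igkv) and 94.2% to 94.8% (Iglv). With 20 counts as the minimum, the Ighv median was 27.5% over 35 libraries, per kilobase 26.2%, and over all V rows 25.6%.

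Of the 164 pairs of a named gene and a comparison, 143 of 146 with a DESeq2 value kept side and direction and 90 lost the call with the compared groups only. Log2 fold changes that turned sign are given as the range over leaving out each mouse, with the turned end in KA over KO and WT over KO females without KO mouse 14. For KA over KO in females Ighm ran from -0.60 to 0.0534, Ighv1-78 from -10.97 to 0.96 and Iglv2 from -8.46 to 2.39, and without mice of high Ttr Ighv1-78 was 0.55 and Iglv2 1.83. For WT over KO in females Iglv2 ran from -8.63 to 0.82. For female KQ over Myc, Igkv6-17 had -4.91 as its lowest value without KQ mouse 37, and Ighv10-1 ran from 0.0 without KQ mouse 17 to 10.18, with 0.0 without mice of high Ttr. For male KA over Myc, Igkv4-70 ran from 0.0 without KA mouse 5 to 8.94.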
